A study of Rattus norvegicus with 2 samples.

Results

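Peaks of DBP occupancy on rat chromosome 1 were described in INS1 832/13 cells. This clone was derived from a rat insulin-secreting tumour, responds to glucose and is widely used to stand in for beta cells. All regions that the authors' peak list places on this chromosome of the rn6 assembly were taken, which gave 343 of the 2234 peaks in the list. The peaks were chosen by their listed position, and the chromosome with earlier results of this list known, so positions and widths are described without tests. The series held 2 libraries of this line, 1 in which an antibody to DBP was used to pull down chromatin and 1 of the DNA before that step (input), and the labels name no treatment, time or genotype for either. The line is a single tumour clone, and the list holds no expression values, so that the labelled beta-cell identity could not be checked against markers. The peaks came from the DBP library, no file of the input library was used, and each group had 1 library, so no replicate error can be given. Read depth is unknown. By its design text, the series asked which sites DBP occupies in this line.

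DBP, named for its binding to the D site of the albumin promoter, is a transcription factor of the PAR bZIP family, with TEF and HLF as its close relatives. These proteins bind as dimers to D-box elements, and the repressor NFIL3 (E4BP4) binds the same elements. The Dbp gene is a direct target of CLOCK and BMAL1 and is among the strongest cycling outputs of the circadian clock, through which DBP carries the daily rhythm to genes of metabolism and secretion. In chromatin immunoprecipitation a peak marks a stretch where fragments recovered with the antibody pile up. Sequence and gene annotation of rn6 were not used here, so no peak is assigned to a gene, exon or promoter and no motif was searched.

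The peaks on chromosome 1 ran from base 4423986 to base 278100704. The names in the list number them from 1 to 343 with no number missing, and no peaks overlap or touch. Together they covered 82205 bp, or 0.0296% of the 278 Mb up to the end of the last peak. If spread evenly they would lie 811 kb apart. The median gap between neighbours was 385 kb instead, with quartiles of 91.2 and 1033 kb. Independent, uniform positions on the same length would give a median gap of 563 kb. This reference, used except where another is named, is a set of formulas with no knowledge of genes, assembly gaps, mappability or DNA copy number. Its formulas for gaps and stretches allow for the peak widths, and those for bins count each peak as a point. The reference was used as a yardstick and not as a test.

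In bins of 1 Mb, the DBP profile of chromosome 1 consisted of many empty bins, many bins with 1 or 2 peaks and a few crowded ones. Of 278 whole bins, 117 (42.1%) held no peak, against 80.8 for uniform positions. Bins with exactly 1 peak numbered 73 against 100.0 for uniform positions, and bins with exactly 2 numbered 52 against 61.7. The order was turned at the crowded end. There were 22 bins with 4 or more peaks, against 10.1 for uniform positions, and 7 bins with 6 or more, against 0.465. The variance of the count was 2.47 times its mean, where uniform positions give 0.996.

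**Figure D1:**
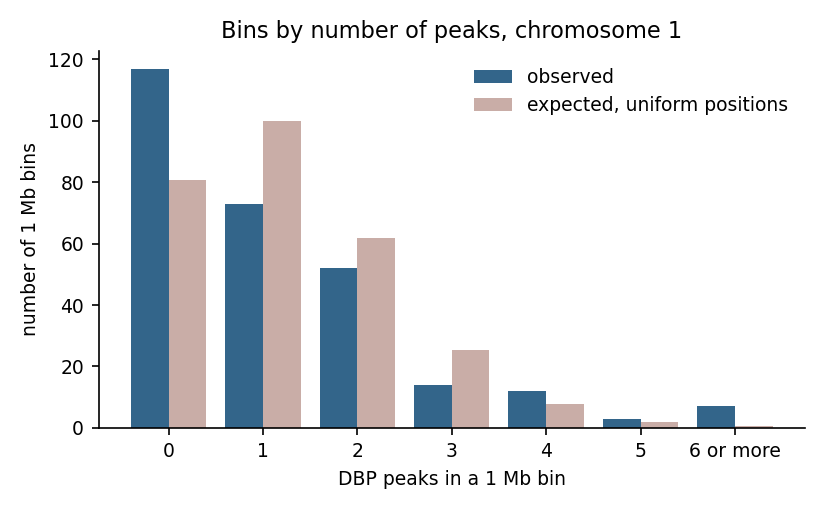
Number of 1 Mb bins of chromosome 1 (y axis) by the number of DBP peaks they hold (x axis), observed and as computed for uniform positions. Empty bins (117 against 80.8) and bins with 6 or more peaks (7 against 0.465) exceed the computed numbers, and bins with 1 to 3 peaks fall short of them.

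In bins of 5 Mb, the counts ran from 0 to 26 with a median of 5. In the first 80 Mb the counts varied little from bin to bin. The 16 bins there held 1 to 9 peaks each, 79 in all, and the variance was 0.823 times the mean. Density still rose along this part, from 0.700 peaks per Mb in its first 20 Mb to 1.35 in its last 20 Mb. From 80 to 130 Mb the profile was the opposite, with 86 peaks in 10 bins, counts from 0 to 26 and a variance 12.9 times the mean. From 130 to 275 Mb the 29 bins held 175 peaks, 0 to 14 each, and the variance was 1.90 times the mean. These parts were drawn after the counts were seen. Most of the unevenness of the chromosome at this scale therefore sat in a stretch of 50 Mb.

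The 2 bins with most peaks, from 80 to 85 Mb and from 100 to 105 Mb, held 26 peaks each. The bin from 85 to 90 Mb followed with 18. These 3 bins made up 5.39% of the length and held 70 peaks, or 20.4% of those on the chromosome, at 4.67 peaks per Mb. The remaining length carried 273 peaks at 1.04 per Mb. Without these bins the variance of the 5 Mb counts was 1.84 times their mean, against 4.38 with them. The bins were picked for their high counts, so a lower ratio without them was fixed in advance. Uniform positions give 0.982 for all 55 whole bins, with none taken out. Further along, the bins from 165 to 170 Mb, 220 to 225 Mb and 240 to 245 Mb held 14, 13 and 12 peaks, and no other bin held more than 10. The 14 bins with most peaks, 25.5% of the 55 whole bins, were enough to hold 50% of the peaks. Bins ranked by their own counts reach 50% early for uniform positions too, and that number was not computed. Bins with 9 or more peaks numbered 10, against 9.28 for uniform positions, and those with 12 or more numbered 6, against 1.26. At the other end, the bins from 120 to 125 Mb and from 205 to 210 Mb were empty, and those from 0 to 5, 90 to 95 and 105 to 110 Mb held 1 peak each.

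**Figure D2:**
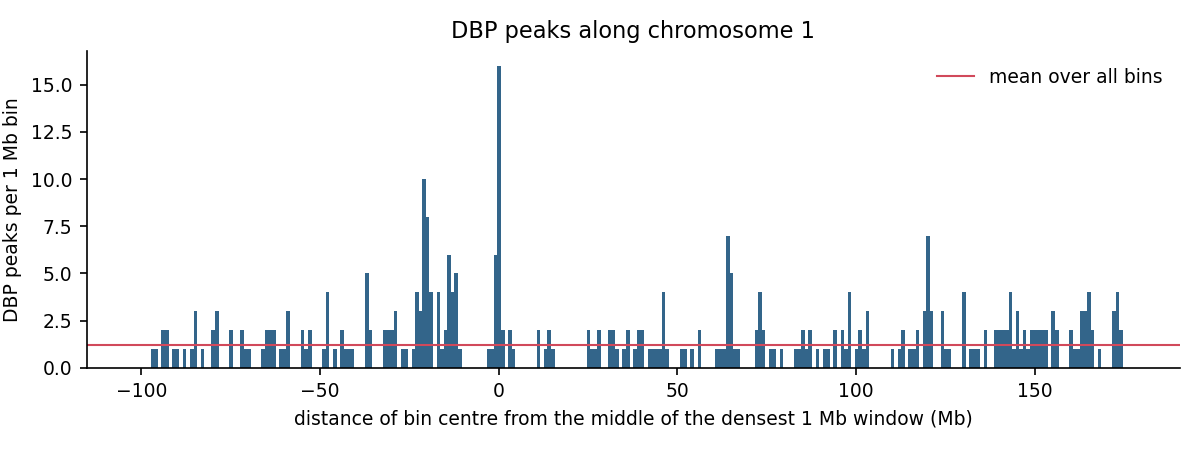
DBP peaks per 1 Mb bin along chromosome 1 (y axis), by distance from the middle of the densest 1 Mb window (x axis, Mb), with the mean of 1.23 peaks per bin as a line. The highest bin holds 16 peaks, the next group of high bins lies to its left, and wide empty stretches lie on either side of the highest bin.

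The 20 Mb sections of the chromosome showed the same course. Density rose from 0.700 peaks per Mb in the first section to 1.35 in that from 60 to 80 Mb and 2.35 in that from 80 to 100 Mb. It was 1.65 per Mb from 100 to 120 Mb and 0.750 from 120 to 140 Mb. In the sections from 140 to 240 Mb it moved around the mean of 1.23 per Mb, at 0.900, 1.35, 1.00, 0.750 and 1.35 in order. Toward the far end it was above the mean, at 1.75 from 240 to 260 Mb and 1.49 from 260 Mb to the last peak. In this last part the peaks were spread over most 5 Mb bins, which held 5 to 10 each between 245 and 275 Mb.

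Windows of 1 Mb that began at a peak, freed of overlaps by keeping the densest first, gave 10 windows with 6 or more peaks. They held 87 peaks, or 25.4% of those on the chromosome. They were picked for their high counts, and no test is given. Of the 10, 5 lay between 80 and 90 Mb or between 100 and 105 Mb, and the other 5 lay between 164 and 275 Mb. None of the listed windows began in the first 80 Mb. Windows that began in the chain of 5 peaks from 79910621 to 80028975 overlapped a denser window and were dropped by this rule.

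The densest window ran from 100889740 to 101885253 and held 18 peaks. It opened with 5 peaks, at 100889740 (219 bp wide), 100991828 (422 bp), 101010766 (396 bp), 101151413 (109 bp) and 101153079 (362 bp), of which the last 2 were 1.56 kb apart. After an empty 319 kb, 13 peaks followed between 101472236 and 101885253, with every gap under 100 kb. This run of 413 kb was the longest chain of peaks on chromosome 1 when chains were cut at gaps of 100 kb, and the next largest chains held 5 peaks. It contained the widest peak of the window (581 bp, 101526200 to 101526780) and 2 pairs less than 100 bp apart. The members of those pairs were 350 and 155 bp wide with 61 bp between them (101620978 to 101621543), and 375 and 187 bp wide with 83 bp between them (101884609 to 101885253). Widths in the window ran from 109 to 581 bp with a median of 282.5 bp, and the 18 peaks together covered 5087 bp of the 996 kb.

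The second window, from 80207995 to 81152727, held 12 peaks in 2 clumps with 4 peaks strung between them. A clump of 4 peaks within 64.8 kb opened it (80207995 to 80272774), and another clump of 4 within 80.2 kb closed it (81072484 to 81152727). The widest peak, of 516 bp, lay in the closing clump, and no gap inside either clump exceeded 32.4 kb. A window of 7 peaks, from 81372962 to 82136836, began 220 kb further on. It had the highest median width of the 10 windows, 385 bp, and contained the widest peak of the chromosome and of the whole list, 1115 bp from 82108133 to 82109247.

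Windows of 8 peaks were found at 4 places. Those from 86909022 to 87791015 and from 88256462 to 89055643 were neighbours, and each had its peaks crowded toward its right end: in the first, 5 of 8 peaks lay in the last 144 kb, and in the second 4 of 8 lay in the last 49.0 kb. The other windows of 8 peaks, from 164849776 to 165820973 and from 220966505 to 221894082, were more evenly filled, with median gaps of 110 and 119 kb against 52.1 and 29.5 kb. Windows of 6 peaks lay from 166234165 to 167017301, from 174700925 to 175513041 and from 273796503 to 274762656.

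**Figure D3:**
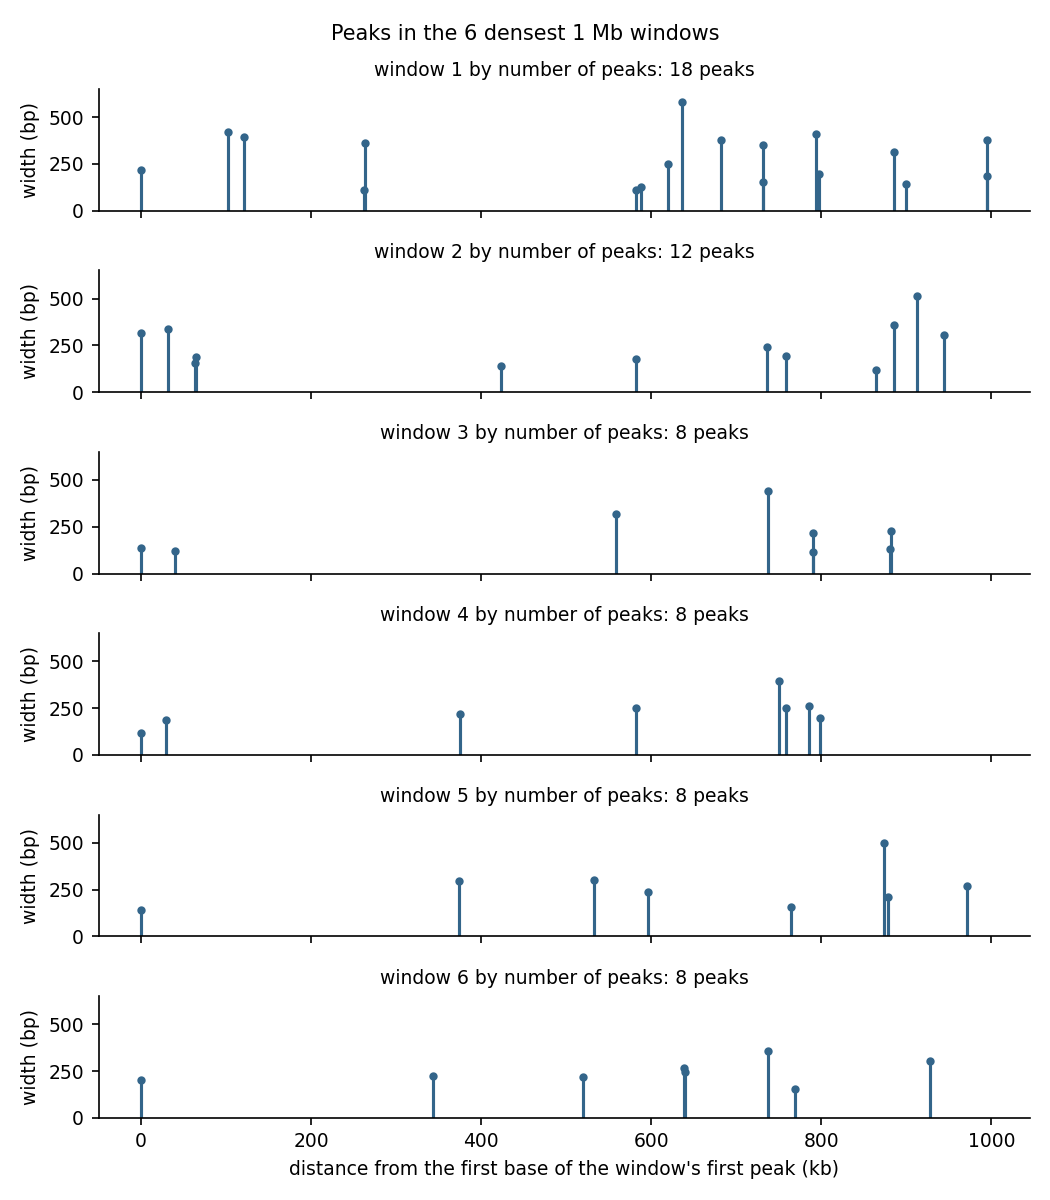
Position (x axis, kb from the start of the window's first peak) and width (y axis, bp) of each DBP peak in the 6 windows of 1 Mb with most peaks. In the window of 18 peaks, 13 lie in its right part after an empty 319 kb, and the window of 12 has a clump of 4 at each end.

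Chromosome 1 also had long stretches without a peak up to the end of its last peak, beyond which no stretch was measured. The longest ran for 9.89 Mb from 116897150 to 126789304, the next for 8.50 Mb from 90245427 to 98746034 and the one after for 7.36 Mb from 105330007 to 112693308. All 3 lay within the same 36.5 Mb, on either side of the densest window. Between the second and the third lay 6.58 Mb with 29 peaks, at 4.40 peaks per Mb, and between the third and the first lay 4.20 Mb with 6 peaks. The fourth, of 6.89 Mb, ran from 204939543 to 211824987, and the fifth, of 4.73 Mb, from 157573325 to 162307539. Only the first 4 of these reached 5 Mb. The sixth, of 4.65 Mb, was close to the fifth, and the start of the chromosome up to the first peak accounted for 4.42 Mb.

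For uniform positions the longest stretch would be 5.20 Mb on average, so that 4 stretches of chromosome 1 exceeded this mean. Stretches of 4 Mb or more up to the last peak numbered 12, against 2.41 for uniform positions. They took up 67.2 Mb or 24.2% of the length. Those of 2 Mb or more numbered 34 against 29.0, so the surplus was among the longer stretches. Whether these stretches hold assembly gaps, repeats that reads cannot be placed in, few genes or sites below the authors' unknown threshold was not tested.

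Close neighbours were more frequent than uniform positions give at each of the 3 scales up to 100 kb. Of the 342 gaps, 11 were under 500 bp, 23 under 10 kb and 92 under 100 kb, against 0.210, 4.18 and 39.6 for uniform positions. At under 1 Mb the numbers were nearly equal, 254 against 242. With peaks less than 500 bp apart counted once, 81 pairs under 100 kb remained against 37.2, and 12 under 10 kb against 3.92.

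With the count of every 5 Mb bin kept and positions uniform inside bins, a reference added after the data were seen, 55.8 of the 289 gaps inside bins would be under 100 kb, and 91 were. With peaks under 500 bp apart joined as well, the numbers were 50.4 and 80, a ratio of 1.59. Without the stretches from 80 to 90 and 100 to 105 Mb, 52 of 270 gaps were under 100 kb against 27.3 for uniform positions, a ratio of 1.91. The ratio over the whole chromosome was 2.32, so neighbours lay closer than uniform positions give outside the dense stretches too. The reference without the dense stretches did not keep the count of each bin, so differences in regional density enter its ratio. Pairs under 500 bp apart were not joined in it.

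**Figure D4:**
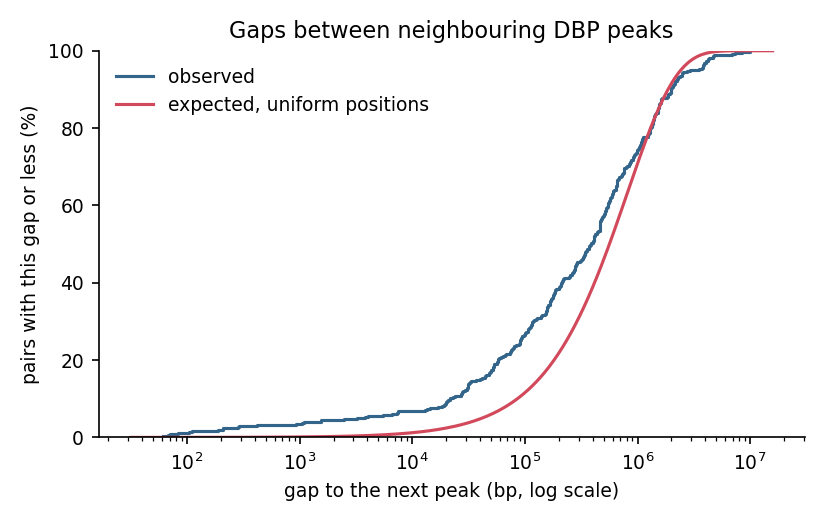
Percent of neighbouring pairs of DBP peaks on chromosome 1 (y axis) with a gap up to the value on the x axis (bp, log scale), observed and computed for uniform positions. The observed curve lies above the computed one up to about 1 Mb, with 92 pairs under 100 kb against 39.6, and below it at the longest gaps.

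Chained at gaps under 100 kb, the peaks fell into 55 groups with 147 peaks (42.9%) and 196 isolated peaks. Most groups were small: 37 were pairs, 10 had 3 peaks, 5 had 4, 2 had 5 and 1 had 13. The groups of 5 ran from 79910621 to 80028975 and from 87646678 to 87791015. Of the groups of 4, those from 64295285 to 64435356 and from 221605402 to 221735144 were the only ones outside the part from 80 to 90 Mb. Groups of 3 were found as far along as 273737122 to 273864300.

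The 11 pairs under 500 bp apart involved 22 different peaks, so no such run of 3 occurred on this chromosome. Their gaps ran from 61 to 414 bp with a median of 110 bp, and 6 were under 150 bp. The widest peak belonged to one of them, with a second peak of 120 bp that began 190 bp after its end. Other pairs with a wide member were 622 and 286 bp (79910621 to 79911738), 584 and 140 bp (166739271 to 166740280) and 558 and 392 bp (199194146 to 199195163), which spanned 1118, 1010 and 1018 bp as a whole. Of the 11 pairs, 2 lay in the densest window, which held 17 of the 342 gaps of the chromosome. Whether a pair is a single enriched stretch cut during peak calling was not tested, since the list carries no signal between peaks.

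Between 500 bp and 10 kb there were 12 further pairs. The closest had gaps of 933 bp (22002869 to 22004121), 1038 bp (102640107 to 102641408) and 1096 bp (174700925 to 174702395), and 3 of the 12 lay in the densest window. In the pairs with gaps of 933 and 2473 bp, a peak slightly above 200 bp stood beside one close to the minimum width, 208 with 112 bp and 211 with 111 bp.

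The median width of the chromosome 1 peaks was 208 bp (exact order-statistic 95% interval 192 to 228, over peaks), and its quartiles were 143 and 293 bp. The mean was 240 ± 129 bp (SD over 343 peaks). The other chromosomes together had a median of 191 bp (interval 186 to 196). Of the 20 other chromosomes, 4 had a larger median than chromosome 1 and 16 a smaller one. Peaks wider than 300 bp made up 24.2% of the peaks of chromosome 1 (83 of 343, exact Clopper-Pearson interval 19.8 to 29.1%) and 15.5% of the others (294 of 1891, interval 13.9 to 17.3%). Peaks at the minimum width of the list, 109 bp, made up 2.62% (9 of 343, interval 1.21 to 4.92%) and 4.81% (91 of 1891, interval 3.89 to 5.88%). These intervals treat peaks as independent and cover counting error only, and the differences were not tested.

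Gaps from 10 to under 100 kb likewise made up 20.2% of those on chromosome 1 (69 of 342, exact interval 16.1 to 24.8%) and 11.1% of those elsewhere (208 of 1871, interval 9.73 to 12.6%). At under 500 bp the shares were 3.22% and 3.26%, and from 500 bp to under 10 kb they were 3.51% and 3.10%. Density differs between chromosomes and by itself changes these shares, and the differences were not tested.

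The 10 widest peaks of chromosome 1 were scattered along it. After the peak of 1115 bp came one of 736 bp (247170936 to 247171671), whose nearest neighbour lay 328 kb away, and one of 658 bp (72902500 to 72903157), with a neighbour at 56.8 kb. Those of 646 bp (100393373 to 100394018), 622 bp (79911117 to 79911738) and 581 bp (101526200 to 101526780) lay in or next to the dense stretches. Those of 617 bp (157403400 to 157404016) and of 614 bp (46377492 to 46378105 and 174768443 to 174769056) lay in 5 Mb bins with 3, 5 and 6 peaks, and that of 584 bp (166739271 to 166739854) in a bin with 14. Wide peaks thus occurred in both crowded and thinly filled parts.

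Along the chromosome, median widths of the 20 Mb sections ran from 144 bp (interval 120 to 220, 20 peaks, 40 to 60 Mb) to 259.5 bp (interval 128 to 324, 14 peaks, 0 to 20 Mb), and these 2 intervals are wide and overlap. The rank correlation of width with position was 0.02 over 343 peaks, and that of a peak's width with the width of the next peak was 0.06 over 342 pairs. All of these points come from 1 library, and no p is given.

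By distance to the nearest peak, median widths did not follow a steady order. The 22 peaks of the pairs under 500 bp apart had a median of 236 bp (interval 155 to 375). It was 202 bp for the 24 peaks with their closest neighbour at 500 bp to 10 kb (interval 126 to 251) and 228 bp for the 101 peaks with one at 10 to 100 kb (interval 193 to 263). For the 196 isolated peaks it was 195.5 bp (interval 176 to 226). The 28 of these with no neighbour within 1 Mb had the lowest median, 171 bp (interval 135 to 256). By regional density, peaks in 5 Mb bins with 1 to 3 peaks had a median of 181 bp (interval 151 to 246, 35 peaks), and those in bins with 4 to 6 one of 194.5 bp (interval 166 to 225, 110 peaks). In bins with 7 to 10 peaks the median was 228 bp (interval 184 to 266, 89 peaks), in those with 12 to 14 it was 224 bp (interval 172 to 272, 39 peaks) and in the 3 densest bins it was 219.5 bp (interval 186 to 312, 70 peaks). All of these intervals overlap, and no difference was tested. The rank correlation of width with the distance to the nearest peak was -0.15, and that with the count of the 5 Mb bin was 0.15.

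**Figure D5:**
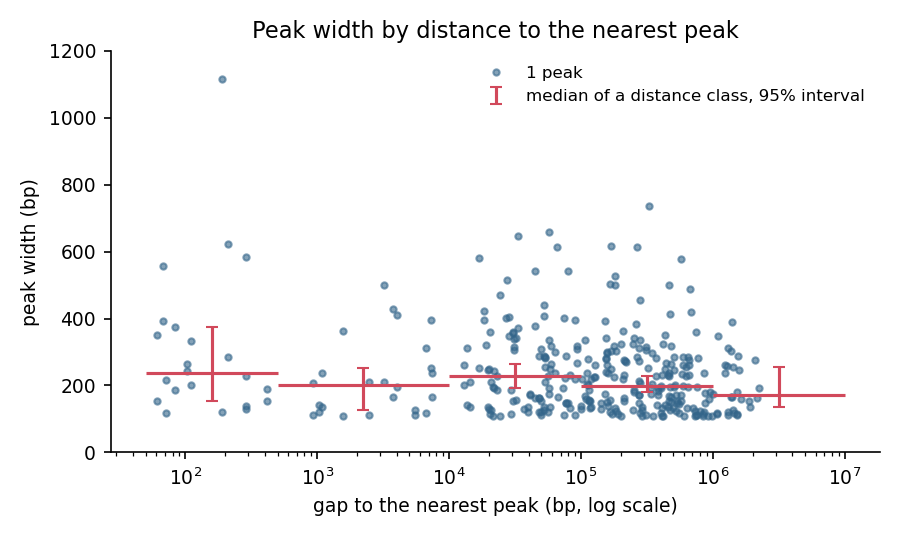
Width of each of the 343 peaks (y axis, bp) by the gap to its nearest peak (x axis, bp, log scale), with the median of 5 distance classes and its exact 95% order-statistic interval. The class medians lie between 171 bp (the most isolated peaks) and 236 bp (the closest), with overlapping intervals and single peaks spread from 109 to 1115 bp.

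The 9 peaks at the minimum width of 109 bp had neighbours at 1.56 to 988 kb. Of these 9, 3 lay within 100 kb of another peak, as did 147 of all 343 peaks (42.9%). With 9 peaks, no difference can be read from this. One of the 9, from 101151413 to 101151521, was in the densest window. Those from 90245318 to 90245426 and from 148646718 to 148646826 stood at the left edge of peak-free stretches of 8.50 and 4.18 Mb.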

How the data were processed

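The deposited file is the authors' peak list for the DBP ChIP library, with chromosome, start, end and name per peak and no score, fold, p-value or summit. The submitters' processing notes name HISAT2 2.1.0, MACS2 2.2.7, HOMER 4.11.1 and rn6. Their settings, the peak threshold and the use of the input were not given in the sources used here. Positions count from 1. Peaks were assigned to bins by midpoint, and gaps were counted from end to next start. The incomplete last bin was left out of the bin counts. In 5 Mb bins it held 3 peaks. These were kept in the widths and rank correlation by bin count. They were also kept in the reference inside 5 Mb bins, with the last bin taken as a full 5 Mb. Expected values for independent uniform positions were computed from formulas (binomial bin counts, spacings of a uniform sample) on the length up to the last peak. References inside 5 Mb bins and without the dense stretches used the length of the bins or of the remaining stretches instead. Pair counts by gap, the longest stretch and empty 1 Mb bins of the whole chromosome were checked on simulated positions. The other expected values were not checked in this way. Values were computed with Python 3.11.15, numpy 2.4.6 and scipy 1.17.1. The region and the descriptions were chosen with earlier results of these data known. Regions were named by rank: windows, widest peaks, longest stretches and chains. No gene was named, as the rule needed rn6 annotation. Alternatives joined close peaks, shifted bins, measured gaps between midpoints, or kept only wider peaks.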

Additional observations from a re-analysis of the deposited data

How the results depend on the processing

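Joining peaks within 500 bp, joining them within 10 kb or leaving out the minimum width gave 332, 320 and 334 peaks. In 1 Mb bins the ratio of variance to mean was 2.30 with bins shifted by 0.5 of a bin, 2.204 and 1.90 with peaks within 500 bp and 10 kb joined, 2.24 among peaks wider than the median, and 1.49 without the 3 densest 5 Mb bins (80 to 90 and 100 to 105 Mb), an alternative chosen after seeing the data. In 5 Mb bins the same settings gave 4.66, 3.82, 3.24, 3.30 and 1.84, against 4.38. The highest 1 Mb bin held 11 peaks with shifted bins or 10 kb joining. Keeping only peaks wider than the median, which removes 50% of the list, left 182 empty 1 Mb bins and 9 empty 5 Mb bins, highest counts of 9 and 14, 34 pairs under 100 kb (3.35 times the uniform number) and a longest stretch of 16.6 Mb (1.80 times the uniform mean, against 1.90). The ratio for pairs under 100 kb was 2.18 with joining within 500 bp and 2.32 between midpoints. Peaks with their nearest neighbour at 500 bp to 100 kb, which leaves out the pairs under 500 bp, exceeded isolated ones in median width by 24.5 bp. Without the minimum width the difference was 21.0 bp, and with joining within 500 bp it was 36.5 bp. Joined pairs enter this last value as single spans of 403 to 1425 bp, gap included. It is therefore not a like-for-like check of the 24.5 bp. No strength of peaks was listed and depth is unknown, so sites below the threshold are not seen. No paired analysis was possible because there was only 1 library per group.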
